A study of Mus musculus with 5 samples.

Results

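The genes described here are 41 mouse genes of autophagy and the lysosome, taken by symbol from the kinase complex that starts an autophagosome to the proteases that digest its contents. A probe was assigned to a gene when the RefSeq transcript named for it in the array files belongs to that symbol. By this rule 40 of the 41 genes had a probe, 69 of the 41174 non-control probes on the array, and Atg9a had none. The same matching gave 17016 named genes over the whole array. Liver RNA came from male C57BL/6N mice kept on an ethanol diet for 8 weeks and given 3 ethanol binges of 5 g per kg, and 5 such samples, livers 1 to 5, form a single group. On each array the RNA of 1 liver carried Cy5 and a purchased assorted mouse total RNA, whose strain and tissue the labels also give as C57BL/6N and liver, carried Cy3. No array had the dyes exchanged. Mice on other diets belong to a parallel series that was not analysed here, so each value below is a level relative to that reference RNA and none measures an effect of ethanol. Whether the livers came from separate animals is not stated, so a p-value covers just the spread of these samples, and that spread may be technical.

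Autophagy encloses part of the cytoplasm in a membrane sac, the autophagosome, which then fuses with a lysosome. The ULK kinase complex starts the process, a class III phosphatidylinositol 3-kinase marks the membrane with PI3P, and a pair of ubiquitin-like conjugation systems attaches ATG8 proteins such as LC3 to the growing membrane. Cargo receptors link damaged mitochondria, protein aggregates or lipid droplets to ATG8, and lysosomal cathepsins digest what is delivered. In hepatocytes this route turns over mitochondria, stored lipid and protein, and it is active during fasting.

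The arrays held 45018 spots each, of which 2.32% to 4.05% per array were marked as outliers by the scanner software and left out. Liver signal was well above background at 77.3% to 81.2% of spots per array, reference signal at 69.9% to 78.4%, and no spot was saturated. The SD of log2 ratios was 0.10 in the median between the 10 spots of a probe on 1 array and 0.17 between livers, over 184 probes spotted that often. Of 10 core hepatocyte markers 8 were on the array, and all 8 exceeded background clearly on every array, in liver and reference alike. Of these 8, 7 lay above 0 and 4 were higher in the livers, with a median log2 ratio of 0.28 and summed signals of 577611 to 714560 in livers against 277850 to 402215 in the reference. All 4 red blood cell markers lay below 0 and 2 were lower, with a median of -0.74 and summed signals of 2609 to 9617 against 8958 to 13092. Of 13 Kupffer cell and macrophage markers tested, 9 were lower in the livers than in the reference and 12 lay below 0, with summed signals of 9323 to 13385 in livers and 12395 to 19381 in the reference. The dimmest of these markers, Timd4, had a median liver signal of 18.1. Sinusoidal endothelial markers were lower for 5 of 9, with summed signals of 3647 to 5436 in livers and 4183 to 7030 in the reference. The part of these cell types in the ratios of autophagy genes was not tested, and in tissue RNA fewer cells of a type and less RNA per cell cannot be told apart.

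Autophagy and lysosome genes stood close to the reference RNA. Of 37 genes that could be tested, 6 were lower in the livers, namely Atg7, Atg3, Uvrag, Atg2a, Tfeb and Optn, 1 was higher, Ctsl, and 30 were not called. A gene was called when limma's moderated test of its mean log2 ratio against 0 gave a Benjamini-Hochberg adjusted p below 0.05 over all 14917 genes tested. The called share, 18.9%, stood beside 26.9% of all genes tested. Lower calls made up 16.2% of the 37 genes and 12.7% of all genes, and higher calls 2.7% and 14.2%. With the arrays scaled to each other the split was 3 higher and 6 lower. The largest fold was 1.47, for Atg7, and 0 of the 37 genes were called at 2-fold or more, against 1.27% of all genes.

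The mean log2 ratio was above 0 for 16 of the 37 genes (43.2%, against 46.9% of all genes) and below 0 for 21 (56.8% against 53.1%). Its median was -0.03, beside -0.02 for all genes, and the median size regardless of sign was 0.15 beside 0.16. Every usable liver lay above 0 for 3 genes, Ctsl, Atg4d and Bnip3l, which is 8.11% against 19.1% of all genes. Every usable liver lay below 0 for 10 genes, 27% against 20% of all genes. The median over the 37 genes was -0.01, -0.10, -0.14, 0.04 and -0.02 in livers 1 to 5.

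**Figure D1:**
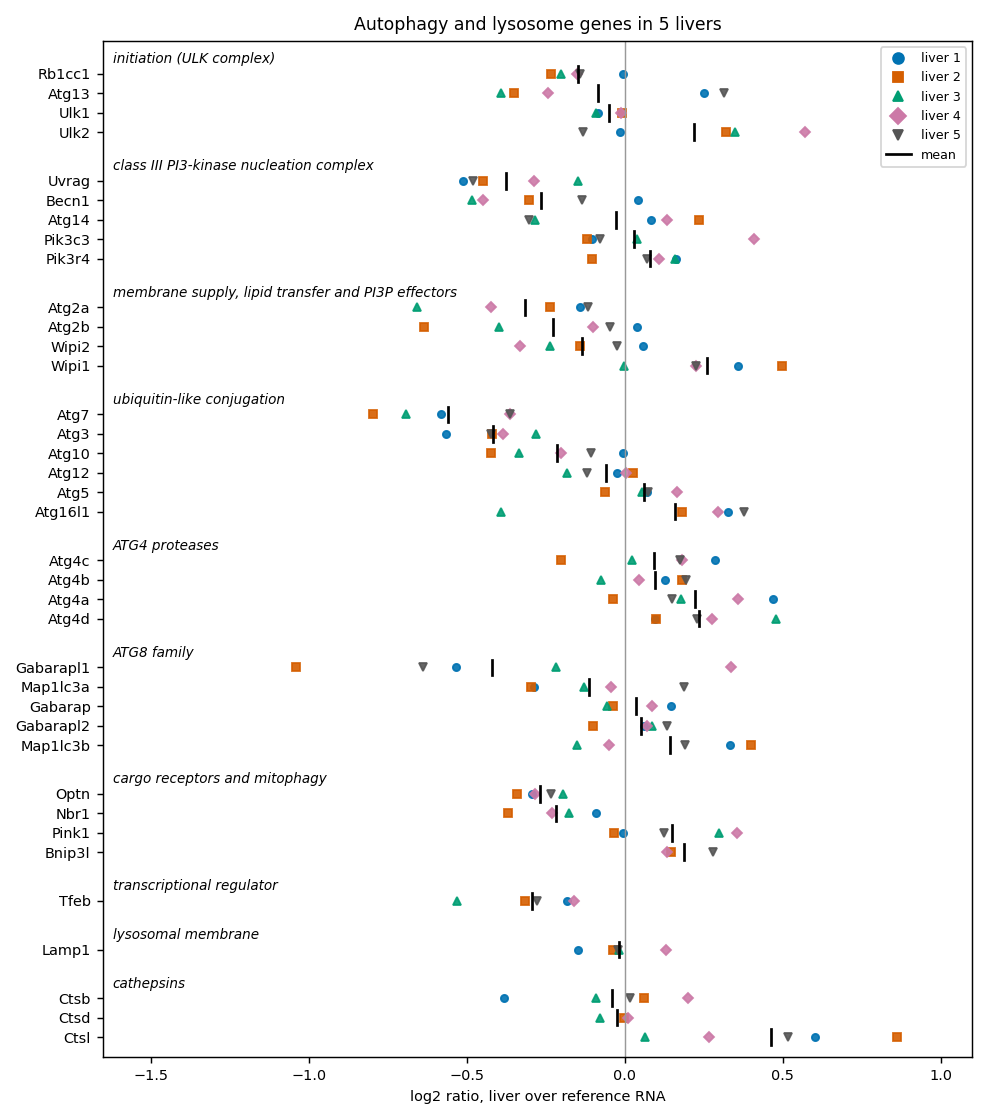
Log2 ratio of liver over reference RNA (x axis) for the 37 tested genes, grouped by role, with 1 symbol per liver and a black bar at the mean. Atg7, Atg3, Uvrag, Atg2a, Tfeb and Optn lie left of 0 in all 5 livers, Ctsl lies right of 0 in all 5, and Gabarapl1 spans from -1.04 to 0.34.

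Liver-to-liver spread was also near that of other genes, with a median SD of 0.17 log2 units beside 0.18 for all genes. An F test of each variance against the intensity-dependent prior variance of limma called 0 of 36 genes after adjustment and 0 of 13204 genes in all, which is 0%. That prior is estimated from the variances of the same genes, so the test asks just whether a gene varies more than most. Its 0 calls therefore do not show that the spread was small. At an unadjusted p below 0.05 this limma-based F test took 1 of the 36, Gabarapl1, which is 2.78% against 5.66% of all genes. Gabarapl1 had the largest SD, 0.52, followed by Atg13 at 0.34, Atg16l1 at 0.32 and Ctsl at 0.31. The smallest SDs were those of Ulk1 and Ctsd, 0.05 each over 4 and 3 livers, and Optn, 0.06 over 5. With outlier spots kept the SD was 0.16 for Ulk1 and 0.03 for Ctsd, so the low rank of Ulk1 rests on a dropped spot.

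**Figure D2:**
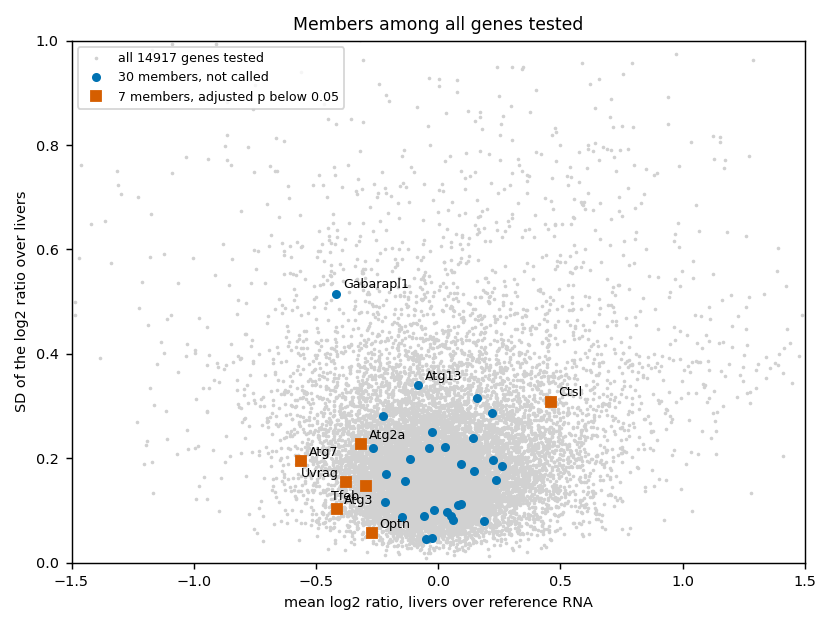
Mean log2 ratio over livers (x axis) against its SD over livers (y axis) for all 14917 genes tested (grey; 108 lie outside the plotted range), with the 37 autophagy and lysosome genes in colour and the 7 called ones as squares. The coloured points sit inside the grey cloud, with Atg7 farthest left, Ctsl farthest right and Gabarapl1 highest.

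TFEB, the product of Tfeb, is a master regulator of lysosomal and autophagy genes that binds the motif GTCACGTG, which holds the general E-box CACGTG within it. Promoters were therefore read for both motifs on either strand, in windows of 300 bases, 250 before to 50 after an annotated start, from RefSeq on GRCm38.p6. Of the 41 genes 33 had a window, 38 windows in all. A gene can thus have more than 1 annotated start, and the start of a window need not be the one used in liver. GTCACGTG was present in 5 of these windows (13.2%, those of Atg3, Atg7, Atg14, Ctsd and Lamp1) and in 2.25% of 32851 windows of all genes. Among other genes of the pathway it was present in 24 of 170 windows (14.1%). CACGTG alone was present in 8 of the 38 windows (21.1%), beside 7.15% of all windows. A match is a run of letters, not a measured binding site. Printed windows were picked for holding a match before the start, and any other window of the same gene is not shown. The 250 bases before the start are printed 5′ to 3′ for the genes with the lowest means among those with a GTCACGTG match (Atg7, chr6:114670846-114671095, plus strand, and Atg3, chr16:45158579-45158828, plus strand), for a cathepsin and a lysosomal membrane gene with a match and means near 0 (Ctsd, chr7:142387828-142388077, minus strand, and Lamp1, chr8:13158911-13159160, plus strand), and for the 1 higher gene (Ctsl, chr13:64370521-64370770, minus strand). Capitals mark GTCACGTG on either strand, or CACGTG in Ctsl, which lacks the longer motif in this window.
Atg7: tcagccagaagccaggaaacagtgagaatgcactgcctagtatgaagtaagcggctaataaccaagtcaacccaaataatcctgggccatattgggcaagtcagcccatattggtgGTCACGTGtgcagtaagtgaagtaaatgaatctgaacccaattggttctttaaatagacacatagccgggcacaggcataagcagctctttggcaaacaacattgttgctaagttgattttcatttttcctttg
Atg3: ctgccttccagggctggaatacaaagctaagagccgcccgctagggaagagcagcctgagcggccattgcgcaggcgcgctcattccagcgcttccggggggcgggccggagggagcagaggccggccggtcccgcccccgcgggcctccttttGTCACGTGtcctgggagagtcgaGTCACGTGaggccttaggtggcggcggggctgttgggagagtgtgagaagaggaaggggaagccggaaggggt
Ctsd: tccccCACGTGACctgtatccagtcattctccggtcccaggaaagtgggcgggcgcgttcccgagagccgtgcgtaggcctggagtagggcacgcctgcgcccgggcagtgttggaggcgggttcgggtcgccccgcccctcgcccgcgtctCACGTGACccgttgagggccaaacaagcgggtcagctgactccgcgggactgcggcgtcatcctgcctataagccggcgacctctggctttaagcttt
Lamp1: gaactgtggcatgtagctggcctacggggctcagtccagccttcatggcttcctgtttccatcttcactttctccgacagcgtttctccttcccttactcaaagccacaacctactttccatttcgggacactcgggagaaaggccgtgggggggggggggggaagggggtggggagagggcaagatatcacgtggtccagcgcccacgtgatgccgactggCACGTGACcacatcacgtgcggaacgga
Ctsl: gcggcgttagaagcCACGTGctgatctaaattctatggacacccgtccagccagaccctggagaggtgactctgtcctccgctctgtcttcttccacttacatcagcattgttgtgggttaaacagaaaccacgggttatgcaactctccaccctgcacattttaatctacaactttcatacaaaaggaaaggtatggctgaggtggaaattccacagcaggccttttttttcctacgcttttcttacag
The Atg7 window carries 1 GTCACGTG, beginning 134 bases before its annotated start, and that of Atg3 carries 2, at 96 and 73 bases before its own. Ctsd also carries 2, on the other strand, and Lamp1 carries 1, beside 3 further copies of CACGTG. On the brightest probe, mean log2 ratios of the genes that share the motif ranged from -0.56 (Atg7) to -0.02 (Lamp1, and Ctsd over 3 livers). Atg3 and Atg14 lay at -0.42 and -0.03 there, while their other tested probes averaged 0.55 and -0.19. Another probe of Ctsd averaged -0.01.

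The transcript of the regulator itself was lower in the livers. Tfeb stood at log2 ratios of -0.18, -0.31, -0.53, -0.16 and -0.28 in livers 1 to 5. All 5 lay below the reference, liver 3 lowest. Its mean was -0.29 ± 0.15 (SD, n = 5), 1.23-fold lower, with a limma adjusted p of 0.0283. The call is close to the threshold, and without liver 2, 3, 4 or 5 the adjusted p was 0.0568, 0.0945, 0.0570 and 0.0639.

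Among the 4 genes of the initiation complex, limma called 0 at an adjusted p below 0.05 and 0 had an unadjusted p below 0.05. Over the 37 genes an unadjusted limma p below 0.05 was reached by 14, which is 37.8% against 41.3% of all genes. Ulk1 and Ulk2 encode the kinases, Rb1cc1 the scaffold FIP200, and Atg13 the subunit that binds both. Ulk1 lay at -0.09, -0.01, -0.09 and -0.01 in livers 1 to 4, all just below 0, and its spot in liver 5 was not usable. Its mean of -0.05 had a 95% interval from -0.23 to 0.13 in the limma fit. With outlier spots kept, Ulk1 stood at 0.28 in liver 5 and its mean was -0.0037 ± 0.16. Ulk2 lay at -0.02, 0.32, 0.35, 0.57 and -0.13, so livers 2 to 4 were above and livers 1 and 5 below the reference. Its mean was 0.22 ± 0.29 (limma adjusted p = 0.148). The other probe of Ulk2, at 0.07, -0.32, 0.10, 0.05 and -0.19, averaged -0.06 and did not repeat this division of the livers. With median centring in place of loess the mean of the brightest probe was 0.26 and called higher (limma adjusted p = 0.0381). With probes averaged the mean of Ulk2 was 0.08 (limma adjusted p = 0.460). Atg13 lay at 0.25, -0.35, -0.39, -0.24 and 0.31 (mean -0.08 ± 0.34, n = 5). Its livers 1 and 5 were above 0 and livers 2 to 4 below it, opposite to the brightest probe of Ulk2. Rb1cc1 was represented by 6 tested probes, and all 6 averaged below 0, between -0.26 and -0.04.

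In the class III PI3-kinase complex, 1 of 5 genes was lower. Uvrag, whose product joins the Beclin 1 complex and takes part in autophagosome and endosome maturation, lay at -0.51, -0.45, -0.15, -0.29 and -0.48 in livers 1 to 5. It was below the reference in every liver, least so in liver 3. Its mean was -0.38 ± 0.15 (SD, n = 5), 1.30-fold lower, with a limma adjusted p of 0.0113, and the call held without each liver in turn. Becn1, which encodes Beclin 1, the regulatory core of the complex, lay at 0.04, -0.30, -0.48, -0.45 and -0.14. Liver 1 was at the reference level and livers 3 and 4 were lowest, and the mean of -0.27 ± 0.22 missed the threshold (limma adjusted p = 0.0671). Pik3c3, the lipid kinase VPS34, and Pik3r4, its anchoring subunit VPS15, averaged 0.03 and 0.08. Atg14, which directs the complex to autophagosome formation, averaged -0.03 and ranged from -0.30 in liver 5 to 0.24 in liver 2. The other probe of Atg14 lay below 0 in every liver and averaged -0.19.

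Of 4 tested genes that supply membrane or read PI3P, 1 was lower. Atg2a and Atg2b encode lipid transfer proteins that feed the growing membrane. Atg2a lay at -0.14, -0.24, -0.66, -0.42 and -0.11 in livers 1 to 5, below 0 throughout and lowest in liver 3. Its mean was -0.31 ± 0.23 (SD, n = 5; limma adjusted p = 0.0387), and its other probe averaged -0.46, with all 5 livers below 0. Without liver 2, 3 or 4 the adjusted p was 0.0647, 0.117 and 0.123. Atg2b averaged -0.23 ± 0.28 on its brightest probe and -0.01 on its other one.

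The PI3P-binding proteins WIPI1 and WIPI2 recruit the conjugation machinery. Wipi1 lay at 0.36, 0.50, -0.0031, 0.23 and 0.23 in livers 1 to 5, so liver 2 was highest and liver 3 at the reference level. The mean was 0.26 ± 0.19 (SD, n = 5), and the limma adjusted p of 0.0510 was just above the threshold. It was 0.0268 with the processed signals of the scanner software, 0.0451 with arrays scaled to each other, 0.0496 without trend and robust prior and 0.0371 without liver 3. With median centring the mean was 0.10 (limma adjusted p = 0.631), and with probes averaged it was 0.09 (0.475). The other probe of Wipi1 stood below 0 in 4 livers, at -0.20, 0.29, -0.24, -0.11 and -0.17. Wipi2 was not called, with a mean of -0.14 and with its other probe at -0.24.

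Of 6 genes that attach ATG8 proteins to the membrane, 2 were lower, Atg7 and, on its brightest probe, Atg3. Atg7 encodes the E1-like enzyme that activates both ATG8 and ATG12, and conditional loss of it is a common way to block autophagy in mouse liver. It lay at -0.58, -0.80, -0.69, -0.36 and -0.36 in livers 1 to 5. Each liver was below the reference, livers 1 to 3 more so than livers 4 and 5. Its mean was -0.56 ± 0.19 (SD, n = 5), 1.47-fold lower (limma adjusted p = 0.00382). The call held in all 14 alternative settings, with adjusted p of 0.000117 to 0.0146.

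Atg3 encodes the E2-like enzyme that passes ATG8 to its lipid. On the brightest probe it lay at -0.57, -0.42, -0.28, -0.39 and -0.42, below 0 in all 5 livers. Its mean there was -0.42 ± 0.10 (SD, n = 5), 1.33-fold lower (limma adjusted p = 0.00526). The other probe lay above 0 in all 5 livers, at 0.35, 0.70, 0.52, 0.93 and 0.26. The groups of values from the probes do not overlap, and their average was 0.07 (limma adjusted p = 0.556). The direction for Atg3 therefore rests on which probe represents it.

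The remaining conjugation genes were not called. Atg10, the E2-like enzyme for ATG12, lay at -0.01, -0.42, -0.33, -0.20 and -0.11, below 0 in every liver, and missed the threshold (mean -0.21 ± 0.17, limma adjusted p = 0.0705). Atg12 averaged -0.06 and Atg5, the protein to which ATG12 is joined, 0.06, with 95% limma intervals of -0.23 to 0.11 and -0.10 to 0.22. Atg16l1, which places the ATG12-ATG5 pair on the membrane, lay at 0.33, 0.18, -0.39, 0.29 and 0.38. Liver 3 alone was below 0 there, and the mean was 0.16 ± 0.32 (limma adjusted p = 0.334). Without liver 3 the mean was 0.29, with a limma adjusted p of 0.0461, and with median centring over all livers it was 0.018 (adjusted p = 0.942).

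ATG4 proteases trim ATG8 proteins before conjugation and free them afterwards. On the brightest probe all 4 genes averaged above 0, and 0 were called by limma at an adjusted p below 0.05, while 2 had an unadjusted p below 0.05. Atg4d lay at 0.10, 0.10, 0.48, 0.28 and 0.23, above 0 in every liver (mean 0.24 ± 0.16, adjusted p = 0.0622), and averaged 0.11 with median centring (adjusted p = 0.587). Atg4a lay at 0.47, -0.04, 0.18, 0.36 and 0.15, with liver 2 just below 0 (mean 0.22 ± 0.20, adjusted p = 0.0546). Its probe was dim, and the reference signal was well above background on 1 of the 5 arrays against 5 of 5 for liver. The adjusted p for Atg4a was 0.00749 with median centring in place of loess, 0.0495 with arrays scaled to each other and 0.0309 without liver 2. Atg4b lay at 0.13, 0.18, -0.08, 0.04 and 0.19, with liver 3 alone below 0. Atg4c lay at 0.29, -0.20, 0.02, 0.18 and 0.17, with liver 2 alone below 0, and both genes averaged 0.09. For Atg4b, Atg4c and Atg4d the other probe averaged below 0, at -0.05, -0.07 and -0.05.

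The ATG8 family, which marks the autophagosome and binds cargo receptors, held 0 called genes among 5 (limma, adjusted p below 0.05), and 1 with an unadjusted p below 0.05. Gabarapl1 lay at -0.54, -1.04, -0.22, 0.34 and -0.64 in livers 1 to 5. Livers 1, 2 and 5 were well below the reference, liver 3 slightly so and liver 4 above it. Its mean was -0.42 ± 0.52 (SD, n = 5; limma adjusted p = 0.114), and it was -0.61 without liver 4 (adjusted p = 0.0239) and -0.58 with median centring (adjusted p = 0.0214). Without liver 2 it was -0.26 (limma adjusted p = 0.255). The other probe, usable in livers 1 and 2, gave -0.60 and -1.19. With its outlier spots kept that probe gave -0.64, -1.21, -0.53, -0.16 and -0.97, the same order of livers, with liver 4 below 0.

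Map1lc3b, which encodes the LC3B protein used to follow autophagosomes, lay at 0.33, 0.40, -0.15, -0.05 and 0.19. Its mean was 0.14 ± 0.24 (limma adjusted p = 0.284), and its other probe, at 0.52, 0.65, 0.13, 0.10 and 0.45, stood above 0 in every liver (mean 0.37). Both probes had liver 2 highest, then 1 and 5, with livers 3 and 4 lowest. Map1lc3a lay at -0.29, -0.30, -0.13, -0.04 and 0.19 and averaged -0.11. Gabarap averaged 0.03 over 4 livers and Gabarapl2 0.05 over 5, with 95% limma intervals of -0.15 to 0.22 and -0.11 to 0.21. ATG8 genes are paralogs, so their probes may share signal.

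Among cargo receptors and mitophagy genes, 1 of 4 tested was lower. Optn encodes optineurin, a receptor for damaged mitochondria and bacteria. It lay at -0.29, -0.34, -0.20, -0.28 and -0.23, with little difference between livers. Its mean was -0.27 ± 0.06 (SD, n = 5), 1.21-fold lower (limma adjusted p = 0.0208), and the adjusted p was 0.0581 without liver 1 and 0.0756 without liver 4. Nbr1, a receptor for aggregates and peroxisomes, lay at -0.09, -0.37, -0.18 and -0.23 in livers 1 to 4 (mean -0.22 ± 0.12, limma adjusted p = 0.0878), and its other probes averaged -0.46 and -0.04. Pink1, the kinase that marks damaged mitochondria, averaged 0.15 ± 0.18. Bnip3l, a mitochondrial receptor also called NIX, lay at 0.15, 0.13 and 0.28 in livers 2, 4 and 5 (limma adjusted p = 0.187).

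Sqstm1, Bnip3 and Lamp2 could not be tested, since most of their spots were marked as outliers. With those spots kept, Sqstm1, which encodes the aggregate receptor p62, lay at -0.21, -0.19, -0.10, 0.18 and -0.05, on both sides of 0 (mean -0.07 ± 0.16, limma adjusted p = 0.514). Bnip3, a hypoxia-responsive mitochondrial receptor, lay at 0.14, 0.14, 0.18, 0.08 and 0.27, above 0 in every liver (mean 0.16 ± 0.07, limma adjusted p = 0.0935). Lamp2, which encodes a lysosomal membrane protein whose isoform LAMP2A serves chaperone-mediated autophagy, has probes for 2 different RefSeq transcripts. With the spots kept they averaged -0.17 (limma adjusted p = 0.0935) and 0.18, and the probe at 0.18 did not represent the gene in the test.

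Among the 4 tested lysosomal genes of the 41, 1 was higher, Ctsl. It encodes cathepsin L, a cysteine protease that digests autophagic cargo. Ctsl lay at 0.60, 0.86, 0.06, 0.27 and 0.52 in livers 1 to 5, so liver 2 was highest and liver 3 close to the reference. Its mean was 0.46 ± 0.31 (SD, n = 5), 1.38-fold higher (limma adjusted p = 0.0177). The adjusted p was 0.0513 without liver 5 and 0.107 with median centring in place of loess, where the mean was 0.31. Ctsb, another cysteine protease, lay at -0.38, 0.06, -0.09, 0.20 and 0.02, with liver 1 lowest, and averaged -0.04 (95% limma interval -0.24 to 0.17). Its other probe averaged 0.09. Ctsd, the aspartic protease, averaged -0.02 over 3 livers (95% limma interval -0.25 to 0.20), and -0.05 over 5 with outlier spots kept. Lamp1, a membrane glycoprotein used as a marker of lysosomes, averaged -0.02 ± 0.10 (95% limma interval -0.18 to 0.14).

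Ctsl, Map1lc3b and Wipi1 were highest in liver 2 on each of their probes. Below that the probes differed. On the brightest probe liver 3 was lowest in all 3 genes, on the other probe of Map1lc3b liver 4 was lowest, and on the other probe of Wipi1 liver 4 came next after liver 2. These genes were put side by side after their values had been seen. Medians of several marker lists were also highest in liver 2. For neutrophil markers they were 0.05, 0.68, -0.13, 0.04 and -0.09 in livers 1 to 5, with 1 of 8 tested called higher and summed signals of 4068 to 9188 in livers against 3415 to 5552 in the reference. For lymphocyte markers they were -0.02, 0.67, 0.13, -0.01 and -0.02, with 2 of 6 higher and sums of 3152 to 7137 against 3602 to 5317. For monocyte markers they were -0.24, 0.25, -0.20, -0.06 and 0.02, with 0 of 3 called and sums of 172 to 414 against 188 to 400. The median of the Kupffer cell and macrophage list was -0.22 there and that of the red blood cell list -0.43, the highest of the 5 livers in each. Liver 2 was also highest for the brain, testis, bile duct, muscle and lung lists, with medians of 0.26, 0.08, 0.07, 0.02 and 0.02 there. The peak in liver 2 was thus not particular to blood and immune cell lists. Hepatocyte, endothelial, stellate cell and kidney lists had their highest median in another liver. The dimmest neutrophil marker, Il1r2, had a median liver signal of 27.8, and the part of any cell type in the liver 2 values was not tested.

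**Figure D3:**
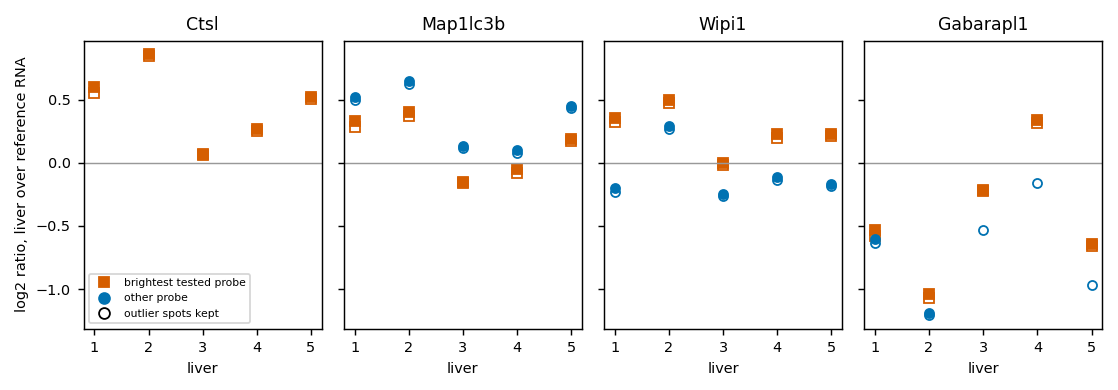
Log2 ratio of liver over reference RNA (y axis) in livers 1 to 5 (x axis) for Ctsl, Map1lc3b, Wipi1 and Gabarapl1, with the brightest tested probe as squares, another probe as circles and open symbols where outlier spots were kept. Ctsl and both probes of Map1lc3b peak in liver 2, whereas Gabarapl1 is lowest there, at -1.04.

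Other probes of a gene were used to see how far a value depends on the probe. Of 18 genes with more than 1 tested probe, 11 had all probe means on one side of 0 and 7 had them on both sides, namely Atg3, Atg4b, Atg4c, Atg4d, Ctsb, Ulk2 and Wipi1. The median gap between the highest and lowest probe mean of a gene was 0.18, against a median SD between livers of 0.17. It was largest for Atg3, 0.97, followed by Nbr1 at 0.42 and Wipi1 at 0.35, and smallest for Ctsd, 0.01. Of the 7 called genes, Atg2a and Atg3 had another tested probe, which pointed the same way for Atg2a and the other way for Atg3. Atg7, Uvrag, Tfeb, Optn and Ctsl had a single probe each.

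**Figure D4:**
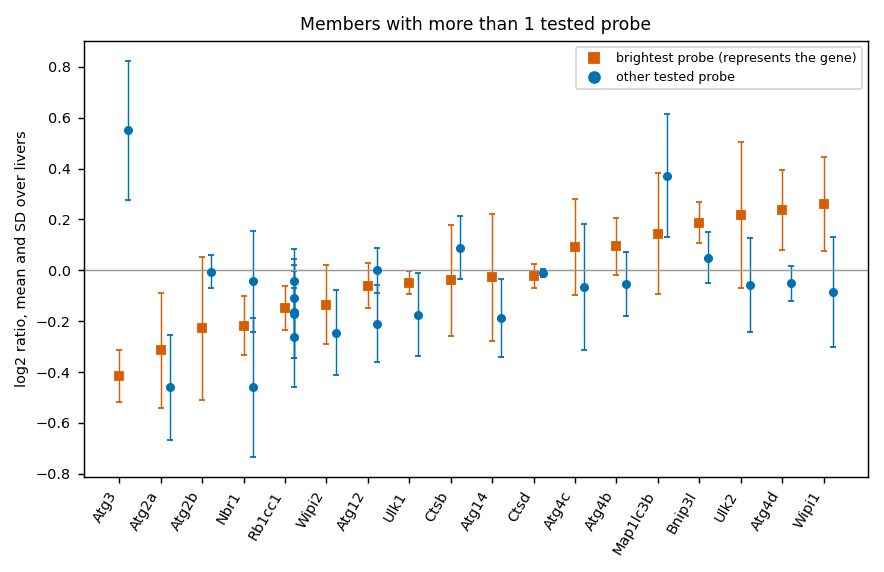
Mean log2 ratio of each tested probe (y axis; bars are the SD over livers) for the 18 genes with more than 1 tested probe, with the brightest probe as a square and the others as circles. The probes of Atg3 stand far apart, at -0.42 and 0.55, while those of Ctsd coincide near 0.

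The rest of the pathway was taken from 10 further lists, chosen with earlier results of these arrays known. They hold 178 genes, of which 167 were tested, and 10 were higher and 29 lower in the livers. Lower calls made up 17.4% and higher calls 5.99%, beside 12.7% and 14.2% of all genes. Their median log2 ratio was -0.10, beside -0.02 for all genes, and 112 of the 167 lay below 0 (67.1%, against 53.1% of all genes). With median centring in place of loess the split was 3 higher and 34 lower. Without liver 2, 3 or 4 the lower count was 14, 12 and 15, and without liver 2, 4 or 5 the higher count was 6, 5 and 6.

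By number, nutrient sensing held the most lower calls, 11 of 31 genes of mTORC1, AMPK and transcriptional control, with 2 higher. Over all genes 12.7% were lower and 14.2% higher. The lists differ in size, from 5 to 33 tested genes, so the number of calls does not rank them. Prkaa2, a catalytic subunit of the energy sensor AMPK, lay at -0.61, -1.10, -0.38, -0.83 and -0.68, below 0 in every liver (mean -0.72 ± 0.26, limma adjusted p = 0.00271). Foxo1, a transcription factor that drives autophagy genes in fasting, lay at -0.46, -0.76, -0.62, -0.69 and -0.84 (mean -0.67 ± 0.15, limma adjusted p = 0.00134), and its other probe averaged -0.43. The relatives of Tfeb went the other way, Mitf at 0.42 ± 0.19 (limma adjusted p = 0.0108) and Tfe3 at 0.26 ± 0.10 (0.0312). The other probe of Mitf averaged 0.04, and with median centring neither gene was called (limma adjusted p = 0.152 and 0.584). Tfe3 also lost its call without any 1 of the 5 livers, with adjusted p of 0.0566 to 0.0828. In chaperone-mediated autophagy 2 of 5 genes were lower, the cochaperone genes St13 at -0.44 ± 0.07 and Stip1 at -0.43 ± 0.09 (limma adjusted p = 0.0032 and 0.00464).

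Lysosomal hydrolases of glycans, lipids and nucleic acids had 3 higher and 3 lower among 33 genes. Hgsnat, an acetyltransferase of heparan sulfate breakdown, was the 1 pathway gene called above 2-fold, at 0.94, 1.60, 1.26, 1.57 and 0.80 (mean 1.23 ± 0.36, limma adjusted p = 0.000823). Idua, which cleaves the same class of glycan, averaged 0.61 ± 0.27 over 4 livers (0.00876). Lipa, the lysosomal acid lipase that hydrolyses cholesteryl esters and triglycerides, lay at -0.64, -1.19, -0.37, -0.49 and -0.53, lowest in liver 2 (mean -0.64 ± 0.32, limma adjusted p = 0.00606). Acp5, an acid phosphatase abundant in macrophages and osteoclasts, averaged -0.60 ± 0.10 (0.00135). In the same livers the Kupffer cell and macrophage list had a median of -0.36, and its part in the Acp5 value was not tested.

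Among 13 other cathepsins and peptidases, Ctsk was higher at 0.55 ± 0.33 (limma adjusted p = 0.0116), and Dpp7 and Ctss were lower at -0.63 ± 0.17 and -0.29 ± 0.21 (0.00184 and 0.0451). Ctss lost its call without any 1 of the 5 livers (limma adjusted p of 0.0554 to 0.135). Lysosomal membrane genes had 0 higher and 2 lower of 19, the transmembrane protein gene Laptm5 at -0.57 ± 0.20 (0.00379), whose other probe averaged 0.29 and whose probes together averaged -0.14 (0.220), and the calcium channel gene Mcoln1 at -0.26 ± 0.10 (0.0340). Mcoln1 kept its call only without liver 5 (limma adjusted p = 0.0435), and without livers 1 to 4 in turn the adjusted p ran from 0.0675 to 0.0997. Vacuolar ATPase subunits, which acidify the lysosome, had 1 higher and 2 lower of 17. The higher one, Atp6v0e2 at 0.41, had another probe at -0.38, and it averaged 0.01 with probes averaged (limma adjusted p = 0.917) and 0.29 with median centring (0.133). The fusion machinery had 1 higher and 3 lower of 14, among them the SNARE gene Ykt6 at -0.31 ± 0.11 (0.0178) and the small GTPase gene Rab7 at -0.42 over 3 livers (0.0276). Without liver 4 the adjusted p for Ykt6 was 0.0569. The other probe of Rab7 averaged -0.05, and its limma adjusted p was 0.152 with probes averaged, where the mean was -0.21, and 0.0607 with median centring. Other receptors of selective autophagy had 1 higher and 2 lower of 13, other autophagosome genes 0 and 1 of 15, and mannose 6-phosphate sorting 1 and 1 of 7.

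Among the pathway genes Retreg1, a receptor for autophagy of the endoplasmic reticulum, varied most, at 0.71, 1.20, -1.43, -0.55 and -0.20 in livers 1 to 5. Livers 1 and 2 were above the reference and livers 3 to 5 below it (mean -0.05 ± 1.04). Vmp1, an endoplasmic reticulum protein of autophagosome formation, lay at 0.62, 0.63 and -0.74 in livers 1 to 3. Ddit4, a stress-induced inhibitor of mTORC1, lay at 0.30, 0.63, -0.80, -0.78 and 0.79, with livers 3 and 4 low. In these 3 genes liver 3 was low and livers 1 and 2 were above 0. Stbd1, another receptor of selective autophagy, went the other way, at -0.31, -1.94, 0.08, 0.31 and -0.46. Its SD of 0.88 was above the 0.79 of Vmp1 and the 0.77 of Ddit4, so the liver pattern was not shared by all widely varying genes. The F test of spread called 0 of 163 pathway genes after adjustment, 0% as over all genes. Even Retreg1 had an adjusted p of 0.531 in this F test, whose prior comes from the same genes. At an unadjusted p below 0.05 this F test took 9 (5.52%, beside 5.66% of all genes).

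**Figure D5:**
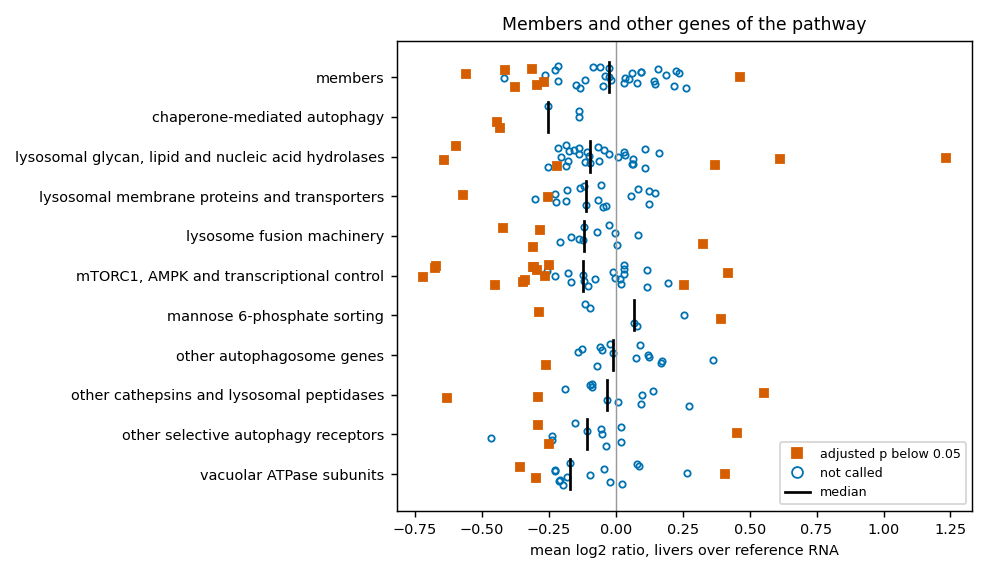
Mean log2 ratio of livers over reference RNA (x axis) for the 37 tested autophagy and lysosome genes (labelled members) and the genes of the 10 further pathway lists, with filled squares for an adjusted p below 0.05, open circles for genes not called and a black bar at each list's median. The control list of mTORC1, AMPK and transcription holds 11 squares left of 0, and Hgsnat stands alone at 1.23.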

How the data were processed

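The scanner files hold median spot and local background intensity in both channels, read by the authors in Agilent Feature Extraction 11.5.1.1, as the file headers state. No mean signal is given there, so medians were used. The deposited files also give each channel's processed intensity, corrected for background and dye by that software, with the log10 ratio of Cy5 to Cy3. In a further table the authors deposited log2 ratios, 90.9% of them within 0.001 of the processed log2 ratio (liver over reference) of the same array. The column medians of that table ran from -0.10 in liver 4 to -0.03 in livers 1 and 5, so it was not centred again.

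Background correction was by normexp (offset 50) and normalization by loess within each array, giving control and outlier spots no weight (limma 3.58.1, R 4.3.3). These spots were then dropped, and repeated spots averaged. Probes were named through RefSeq accessions in a table of assembly GRCm38.p6, while the file headers name build mm8. Testing required a signal well above background in liver or reference on 3 or more of 5 arrays and 3 usable values, and a gene took its brightest such probe over both channels. In limma, a model with an intercept alone asked whether a gene's mean log2 ratio differed from 0 (two-sided, moderated by eBayes with trend and robust prior). Variances were tested with an upper-tail F test against limma's prior (4.53 prior degrees of freedom) for the 13204 genes with both channels above background on every array. Scripts were tested on simulated data. The number of arrays limits the precision, and the tests leave out the spread of the reference RNA and any dye bias of a probe, which no dye swap cancels.

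The genes, lists and tests were chosen with earlier results of these data known. Genes described liver by liver are those past either test, the 4 highest, the 4 lowest, the 4 with the largest SD and those whose probes differ in sign. In each further list they are up to 2 highest and 2 lowest called genes and the one with the largest SD. Others named, such as Becn1, Map1lc3b and the untested genes, were chosen after their values were seen. Alternatives were processed signals, median centring, scaling between arrays, filters on dim probes, averaged probes, outlier spots kept, the deposited ratios, a plain prior and leaving out each liver.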

Additional observations from a re-analysis of the deposited data

Results flagged for a closer look

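Of 35 genes with at least 4 livers, 1 had a liver that stood apart from the others by Dixon's criterion. Atg16l1 lay at -0.39 in liver 3, and the nearest other liver was at 0.18. Chance marks about 1 in 20 groups in this way.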

How the results depend on the processing

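With only 5 samples of 1 group against a reference, small ratios move across the threshold easily. Of 7 called genes, 3 (42.9%; Atg7, Atg3 and Uvrag) kept their call without each liver, as did 15 of 39 other pathway genes (38.5%) and 46.9% of all called genes. The count of higher genes among the 37 was 1, and it was 2 with processed signals, with median centring, with the deposited ratios and with a plain prior, 3 with scaling between arrays, and 0 to 3 without 1 liver (0 without liver 5, 2 without liver 2 and 3 without liver 3). The lower count of 6 was 4 to 7 without 1 liver and 5 to 8 in the other settings. Genes above 0 in every usable liver numbered 3, 5 with outlier spots kept and 2 to 7 without 1 liver, where fewer values have to lie on one side. The median log2 ratio of the 37 genes was -0.12 with median centring, where that of all genes was -0.05. Atg3 turned direction with its tested probes averaged, to 0.068, since its probes lie on opposite sides of 0. Among the other pathway genes the higher count of 10 was 3 with median centring and 5 to 8 without 1 liver, and the lower count of 29 was 12 to 21. Where the construction of an alternative does not show the cause, the cause was not tested. Median centring also called 225 genes for spread over all genes, and 0 of the autophagy and lysosome genes. The slide or scan block was not run, because each array lies on its own slide and all were scanned in 1 session. No paired analysis was possible because all samples form 1 group.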
